A study of Homo sapiens with 27 samples.

Results

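The effect of gefitinib on a pool of UMSCC8 cells was read from 3 gefitinib libraries and 3 DMSO libraries of the kinome shRNA screen, 6 of the 27 libraries. Of the 3177 shRNAs listed, the 3099 whose counts over these 6 libraries added up to 10 or more were compared. UMSCC8 is a cell line from a head and neck squamous cell carcinoma (HNSCC). All 6 plates came from cells that carried the pooled lentiviral kinome library and had been selected in puromycin, and per the labels the DMSO and gefitinib plates differed in the agent alone. Gefitinib, a tyrosine kinase inhibitor (TKI) of EGFR, was given at 300 nM per the treatment protocol, while another field of the labels states 1 µM. DMSO was the vehicle. The main tests also took in the 3 UMSCC8 plates given AZD8931, a pan-ErbB inhibitor, to estimate the spread between plates. AZD8931 was given at 30 nM per the treatment protocol, while the other field states 1 µM. Cells were exposed for 72 hours, recovered in medium for 72 hours and were harvested at 144 hours.

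A pooled shRNA screen asks which knockdowns alter the growth of a cell. Each lentiviral integration places an shRNA cassette in the genome of a cell and its progeny, so that the cassette serves as a tag. A cell whose silenced kinase is needed while EGFR is blocked leaves fewer descendants, and its shRNA takes a smaller share of the pool. A knockdown that favors growth leaves a larger share. EGFR signaling is a main growth pathway in HNSCC, and TGF-β receptors act as a ligand-binding type II kinase and the type I kinase that it activates. The counts are shares of a library, so a lower share cannot be told apart from higher shares of the other shRNAs.

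The identifiers are clone numbers of the TRC collection and are not paired with genes in the files used here. Gene names were available for only 6 shRNAs, 4 of TGFBR1 and 2 of TGFBR2. In GENCODE release 29 (GRCh38), TGFBR2 spans positions 30606502 to 30694142 of chromosome 3 and TGFBR1 positions 99104038 to 99154192 of chromosome 9, both transcribed from the plus strand. Where in these genes the shRNAs are targeted was not analysed here, and no hairpin sequence was used here.

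The totals ranged from 410641 to 506971 counts with DMSO and from 178406 to 516174 with gefitinib, where replicate 3 was the shallowest. The median shRNA had 66 to 83 counts in a DMSO library and 26 to 81 in a gefitinib library. A count of 0 allows up to 3 counts, equal to 5.92 to 7.31 CPM with DMSO (counts scaled to a common library total) and 5.81 to 16.8 with gefitinib, for counting error only. Just inside the limit were 6 shRNAs with 10 summed counts, and just outside it 4 with 9. Of the 78 left out, 43 had 0 counts in all 6 libraries. Among those compared, 33 reached 10 counts over the gefitinib libraries but not over the DMSO libraries, 43 over the DMSO libraries but not over the gefitinib libraries, and 15 in neither group on its own.

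DMSO replicate 1 stood apart from the other libraries. It listed 328 shRNAs at 0, against 87 and 81 in the other DMSO libraries and 102 to 139 in the gefitinib libraries. These were mostly scarce shRNAs, with a median of 9 counts averaged over the other DMSO libraries, but 122 of them had at least 10 counts in both, and 172 were at 0 in none of the other 8 libraries of UMSCC8. On log2(CPM + 1) values across shRNAs, DMSO replicates 2 and 3 correlated at r = 0.835, while replicate 1 correlated at 0.700 and 0.716 with them. It did not resemble the treated plates more, with r from 0.656 to 0.689, against 0.773 to 0.853 for the other DMSO replicates. The biological coefficient of variation between plates was 56.9% with DMSO and 38.6% with gefitinib, and 35.9% for DMSO without replicate 1. The main counts and the named shRNAs are therefore given with and without this library. The part of its missing shRNAs in a result was not tested beyond that.

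No shRNA, 0% of the 3099, passed an adjusted p under 0.05 in either direction by edgeR's quasi-likelihood test, and the smallest adjusted p was 0.175. Before adjustment, 196 shRNAs (6.32%) had a p under 0.05 and a lower share with gefitinib, and 198 (6.39%) a higher share. Without DMSO replicate 1 there was again no call at the adjusted threshold, with a smallest adjusted p of 0.0795, and 189 shRNAs were lower (6.10%) and 235 higher (7.58%) at an unadjusted p under 0.05. With the fit limited to the 6 libraries compared, 162 were lower and 140 higher, with a smallest adjusted p of 0.341 by the same test. In the fit of 9 libraries, the even split depended on the scaling. With libraries scaled by their total counts in place of TMM, 251 were lower and 141 higher, and the median log2 fold change of all shRNAs was -0.07 in place of 0.03. When each library was left out in turn, the number lower ranged from 141 to 236 and the number higher from 116 to 235, with 116 higher without gefitinib replicate 1.

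DESeq2 called shRNAs from the same counts. At an adjusted p under 0.05 it called 32 lower (1.03%) and 44 higher (1.42%), with no adjusted p given for 663 of the 3099. All 32 and all 44 were separated between the groups, with every gefitinib plate on the same side of every DMSO plate. Of all 3099, 9.26% were separated in this way lower and 8.74% higher. The calls came from these same plates, so the separation is not separate support for them. The edgeR adjusted p of these shRNAs ranged from 0.175 to 0.203 for those lower and from 0.175 to 0.222 for those higher. Without DMSO replicate 1, DESeq2 called 21 lower and 39 higher, of which 11 and 22 were also called with it, and gave no adjusted p for 1502. The edgeR exact test called 0 with all 6 libraries, and 3 lower and 4 higher without DMSO replicate 1.

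The difference between groups was modest for most shRNAs. The middle 50% of log2 fold changes lay between -0.42 and 0.50, and 257 shRNAs were more than 2-fold lower and 277 more than 2-fold higher, 17.2% together. The median standard error (SE) was 0.46 on the log2 scale. With DMSO replicate 1 left out the numbers past 2-fold were 225 and 239. The groups did not overlap for 287 shRNAs that were lower on every gefitinib plate (9.26%) and for 271 that were higher (8.74%). With only DMSO replicates 2 and 3, where fewer plates have to be cleared, these numbers were 489 (15.8%) and 446 (14.4%).

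The 196 shRNAs that were lower at an unadjusted p under 0.05 had a median log2 fold change of -1.16, from -6.49 to -0.58. For 168 of them the groups did not overlap, against 9.26% of all shRNAs in this direction, in a list drawn from the same values. Of the 196, 134 (68.4%) were also lower at this threshold without DMSO replicate 1, and these are 70.9% of the list obtained without it. All 196 kept their sign. Through all 6 omissions of a single library, 72 (36.7%) held an unadjusted p under 0.05. DMSO replicate 1 was the highest of the DMSO plates for 106 of the 196 (54.1%), against 36.6% of all shRNAs compared.

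The 198 shRNAs that were higher had a median log2 fold change of 1.05, from 0.51 to 3.91. For 153 of them the groups did not overlap, against 8.74% of all shRNAs in this direction, again from the same values. Of the 198, 145 (73.2%) were also higher without DMSO replicate 1, or 61.7% of the list obtained without it, and all kept their sign. An unadjusted p under 0.05 held through all 6 omissions for 65 (32.8%). DMSO replicate 1 was the lowest DMSO plate for 111 of the 198 (56.1%), against 44.1% of all shRNAs compared, and it listed 13 of them at 0.

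Scarcer shRNAs had larger standard errors. The shRNAs were split into 3 classes of 1033 by the mean CPM over the 6 libraries. In the least abundant class, with a median of 22.7 counts per library, the median standard error of the log2 fold change was 0.82, and 42 shRNAs were lower and 26 higher at an unadjusted p under 0.05, 6.58% of the class. In the middle class, with 70.5 counts, the standard error was 0.45, and 74 were lower and 57 higher (12.7%). In the most abundant class, with 173 counts, it was 0.33, and 80 were lower and 115 higher (18.9%). With DMSO replicate 1 left out these shares were 7.16%, 13.6% and 20.2% in the same order, and the median standard errors 0.70, 0.46 and 0.35. Of the shRNAs listed at 0 in DMSO replicate 1, 244 were in the least abundant class, 8 in the middle class and 0 in the most abundant.

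Fewer shRNAs made up most of the pool on every gefitinib plate than on any DMSO plate, in a design too small for p to fall under 0.05. The number of shRNAs that together held 50% of the counts of a library was 298, 320 and 332 with DMSO and 261, 294 and 263 with gefitinib. The mean was 317 ± 17.2 with DMSO and 273 ± 18.5 with gefitinib (SD of 3 plates), every gefitinib plate lay below every DMSO plate, and the exact permutation test gave a two-sided p of 0.1, the smallest that 3 plates against 3 allow. With DMSO replicate 1 left out the DMSO mean was 326 and the p was 0.2 by the same exact test, again the smallest possible. The most abundant 1% of the shRNAs held 24.5%, 25.4% and 25.5% of the counts with DMSO and 28.3%, 26.5% and 27.6% with gefitinib. Among them was TRCN0000000374, which alone held 2.02%, 2.17% and 2.02% with DMSO and 4.10%, 3.20% and 5.21% with gefitinib. Both measures include it, and whether the groups differ without it was not tested. The AZD8931 plates of the same line, treated with 30 nM of an inhibitor of EGFR, ERBB2 and ERBB3, had 305, 286 and 298 shRNAs at 50% of the counts and overlapped both groups.

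Few shRNAs were lost from the treated plates. Of the 3099, 5 had 0 counts in all 3 gefitinib libraries, and their summed DMSO counts ranged from 12 to 34 with a median of 25. All 5 had most of their DMSO counts in replicate 1. Over DMSO replicates 2 and 3 alone their counts were 1 to 14 with a median of 5. Having passed the limit of 10 counts through DMSO alone, they had to differ. No shRNA among those compared had 0 counts in all 3 DMSO libraries, and 1 had 0 in DMSO replicates 2 and 3, with 1 count over the gefitinib libraries.

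The 4 shRNAs named by rank were picked only from those whose groups did not overlap with or without DMSO replicate 1. Their separation was therefore fixed by the choice and is no result. The shRNA with the smallest p of the comparison was TRCN0000000374, one of the most abundant in the pool. It had 8625, 8906 and 10248 counts on the DMSO plates and 16619, 16532 and 9292 on the gefitinib plates, the last of which is the shallow replicate 3. As a share of the library this was 2.02%, 2.17% and 2.02% with DMSO and 4.10%, 3.20% and 5.21% with gefitinib. All 3 gefitinib shares were above all DMSO shares, and in gefitinib replicate 3 this was the most abundant shRNA, the only one of the 9 UMSCC8 libraries in which it was. Its abundance was 19985 ± 599 CPM with DMSO and 43324 ± 11159 CPM with gefitinib (SD of 3 plates), which on the log2 scale is a difference of 1.12 ± 0.22 (SE, unadjusted p = 0.00013, adjusted p = 0.175 by edgeR). With DMSO replicate 1 left out the log2 fold change was 1.11 (adjusted p = 0.0795, same edgeR test). The adjusted p by DESeq2 was 0.00349, and 0.00958 without that library.

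TRCN0000006092 was next by p among those higher. It had 83, 120 and 153 counts with DMSO and 220, 348 and 131 with gefitinib, or 191, 278 and 290.5 CPM against 571, 679 and 769 CPM. As the choice required, every gefitinib plate was above every DMSO plate. The means were 253 ± 54.1 and 673 ± 99.3 CPM (SD of 3 plates), which on the log2 scale is a difference of 1.41 ± 0.29 (SE, adjusted p = 0.175 by edgeR) and of 1.24 without DMSO replicate 1 (adjusted p = 0.0795, same edgeR test). DESeq2 gave adjusted p-values of 0.00349 and 0.00606 in the same order.

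TRCN0000037475 had the smallest p among the shRNAs that were lower. It had 151, 99 and 161 counts with DMSO and 30, 58 and 16 with gefitinib, or 348, 229 and 306 CPM against 77.9, 113 and 94.0 CPM. The groups did not overlap, as the choice required, and all 3 DMSO plates were high. The DMSO mean was 294 ± 60.0 CPM (SD of 3 plates) and the gefitinib plates were 3.08-fold lower by the fit, a log2 difference of -1.62 ± 0.36 (SE, adjusted p = 0.175 by edgeR) and of -1.49 without DMSO replicate 1 (adjusted p = 0.0941, same edgeR test). DESeq2 gave adjusted p-values of 0.00848 and 0.0120.

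TRCN0000021199, the other lower shRNA named by rank, depended more on DMSO replicate 1. It had 230, 61 and 61 counts with DMSO and 10, 30 and 3 with gefitinib, or 530, 141 and 116 CPM against 26.0, 58.5 and 17.6 CPM. Replicate 1 held 230 of the 352 DMSO counts, but the other DMSO plates were also above every gefitinib plate, as the choice required. The fitted log2 difference was -2.85 ± 0.65 (SE, adjusted p = 0.175 by edgeR) and -1.81 without DMSO replicate 1 (adjusted p = 0.156, same edgeR test). The adjusted p by DESeq2 was 0.00698 with all libraries, and none was given without replicate 1.

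Among the TGF-β receptors, the TGFBR2 shRNA TRCN0000040011 was lower on every gefitinib plate. TGFBR2 binds the ligand and activates the type I receptor. The counts were 47, 48 and 97 with DMSO and 19, 21 and 2 with gefitinib, or 108, 111 and 184 CPM against 49.3, 41.0 and 11.7 CPM. The 2 counts were in the shallow gefitinib replicate 3, and are fewer than the 3 that a count of 0 allows. The groups did not overlap, as for 9.26% of all shRNAs in this direction, and with all 6 libraries its log2 fold change of -1.90 ± 0.62 (SE) ranked 107 of 3099 by p, with an adjusted p of 0.222 by edgeR. It was -2.02 without DMSO replicate 1 (adjusted p = 0.151, same edgeR test). Over the omissions of a library it ranged from -2.24 to -1.60, the latter without gefitinib replicate 3. DESeq2 gave an adjusted p of 0.0741 and, without that library, none.

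The second TGFBR2 shRNA, TRCN0000040008, had 150, 36 and 32 counts with DMSO and 11, 37 and 17 with gefitinib, or 345, 83.4 and 60.8 CPM against 28.6, 72.2 and 99.8 CPM. Only DMSO replicate 1 was high, and the other plates of both groups overlapped. The fitted log2 difference was -1.32 ± 0.69 (SE, adjusted p = 0.456 by edgeR) and -0.15 ± 0.62 without that library (SE, adjusted p = 0.936, same edgeR test). The study had listed both TGFBR2 shRNAs from these libraries, so their direction is not independent evidence. The identifiers numbered between them, TRCN0000040009 and TRCN0000040010, are paired with no gene here and were chosen for their number after values were seen. Their log2 fold changes were 0.05 ± 0.30 (SE) and -0.16 ± 0.27 (SE), and both groups overlapped.

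None of the 4 TGFBR1 shRNAs had an unadjusted p under 0.05 in UMSCC8. TRCN0000039777, the most abundant of them, had 81, 49 and 103 counts with DMSO and 33, 27 and 34 with gefitinib, and a fitted log2 difference of -0.61 ± 0.57 (SE, adjusted p = 0.685 by edgeR) and -0.53 without DMSO replicate 1. Omitting gefitinib replicate 3 gave -1.28 and omitting gefitinib replicate 2 gave -0.24, neither with an unadjusted p under 0.05. Scaled to CPM its groups overlapped, since gefitinib replicate 3 reached 200 CPM, above every DMSO plate. TRCN0000039775 had 101, 8 and 26 counts with DMSO and 29, 13 and 15 with gefitinib, and its log2 fold change of -0.70 ± 0.83 (SE) turned to 0.82 without DMSO replicate 1, the plate with 101 counts. TRCN0000039776 had 1, 33 and 38 counts with DMSO and 17, 23 and 17 with gefitinib, and its value of 0.28 ± 0.89 (SE) turned to -0.30 without that plate, where it had 1 count.

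TRCN0000039774 was scarce, with 0, 5 and 5 counts on the DMSO plates and 10, 7 and 5 on the gefitinib plates. In CPM every gefitinib plate was above every DMSO plate, from 13.7 to 29.4 against 0 to 11.6, close to the limit that a count of 0 allows. The fitted log2 difference was 1.63 ± 1.21 (SE, adjusted p = 0.595 by edgeR) and 1.06 without DMSO replicate 1. The log2 fold changes of the TGFBR1 shRNAs thus had both signs, and none was larger than the spread between plates by the test.

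Clone numbers that follow each other were compared, since the named TGFBR1 shRNAs carry consecutive numbers. Over the 2664 pairs of consecutive numbers, the log2 abundance with DMSO correlated at r = 0.277 between the 2 members, while the log2 fold change with gefitinib correlated at 0.018, and at 0.014 without DMSO replicate 1. The pairs share libraries and are not independent. Of the 332 neighbors of an shRNA that was lower at an unadjusted p under 0.05, 32 (9.64%) were lower themselves, against 6.32% of all. These 32 come from only 16 pairs, since each pair was counted from both of its members. Without DMSO replicate 1 the share was 30 of 324 (9.26%, from 15 pairs), against 6.10%. Of the 338 neighbors of an shRNA that was higher, 18 (5.33%, from 9 pairs) were higher themselves, against 6.39% of all. Without DMSO replicate 1 these were 26 of 407 (6.39%, from 13 pairs), against 7.58%.

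The same agent and dose were applied to UMSCC25 and UMSCC1 cells, 2 other HNSCC lines with DMSO plates of their own. Over the 3099 shRNAs, the log2 fold change in UMSCC8 correlated with that in UMSCC25 at r = 0.090 (0.112 without DMSO replicate 1) and with that in UMSCC1 at 0.097 (0.087), a description across shRNAs of one library pool. Of the 196 shRNAs lower in UMSCC8 at an unadjusted p under 0.05, 122 (62.2%) had a negative log2 fold change in UMSCC25, against 50.0% of all shRNAs, and 114 (58.2%) in UMSCC1, against 49.0% of all. Of the 198 higher, 113 (57.1%) and 116 (58.6%) were positive, against 49.6% and 50.8% of all. With DMSO replicate 1 left out, 117 of 189 lower (61.9%) were negative in UMSCC25 and 104 (55.0%) in UMSCC1, and 134 of 235 higher (57.0%) and 140 (59.6%) were positive.

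At an unadjusted p under 0.05 in both lines, 12 were lower in UMSCC8 and UMSCC25, which is 6.12% of the UMSCC8 list and 14.0% of the UMSCC25 list, and 20 were higher in both, 10.1% and 13.6%. Of all shRNAs compared, 2.78% were lower and 4.74% higher in UMSCC25. In the opposite direction in UMSCC25 were 4 of those lower and 1 of those higher in UMSCC8. With UMSCC1, 5 were lower in both (2.55% and 8.47%) and 2 higher (1.01% and 4.08%), near the 1.90% lower and 1.58% higher of all shRNAs there, while 0 and 2 were in the opposite direction. With the UMSCC8 lists obtained without DMSO replicate 1, UMSCC25 shared 18 lower (9.52% and 20.9%) and 22 higher (9.36% and 15.0%), with 5 and 2 in the opposite direction. UMSCC1 then shared 3 lower (1.59% and 5.08%) and 4 higher (1.70% and 8.16%), with 2 and 2 in the opposite direction.

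No shRNA had a change that differed between UMSCC8 and UMSCC25, or between UMSCC8 and UMSCC1, at an adjusted p under 0.05 in edgeR's test of the interaction over the 27 libraries. Before adjustment, at the same p threshold, the log2 fold change was lower in UMSCC8 than in UMSCC25 for 80 of the 3099 shRNAs and higher for 72. Against UMSCC1 it was lower for 113 of the 3099 and higher for 137. Counts before adjustment are not calls, since such a threshold also passes shRNAs without a difference. Without DMSO replicate 1 of UMSCC8 the counts at the adjusted threshold were again 0, and before adjustment 56 were lower and 53 higher against UMSCC25, and 96 lower and 130 higher against UMSCC1. DESeq2 called 0 for UMSCC25 and 7 for UMSCC1.

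TRCN0000000374 had the smallest p in UMSCC25 as in UMSCC8. There it had 5861, 6091 and 6365 CPM on the DMSO plates and 11293, 11690 and 15082 CPM on the gefitinib plates, which did not overlap. The log2 fold change in UMSCC25 was 1.06 ± 0.21 (SE, unadjusted p = 7.71e-05, adjusted p = 0.239 by edgeR), and it differed from that in UMSCC8 by 0.03 ± 0.38 (SE). In UMSCC1, where the DMSO plates ranged from 6110 to 12303 CPM and the gefitinib plates from 9779 to 11363, the groups overlapped and the log2 fold change was 0.24 ± 0.35 (SE). The difference between UMSCC8 and UMSCC1 was 0.91 ± 0.38 (SE, adjusted p = 0.578 by edgeR).

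The values of the other named shRNAs in these lines had both signs. TRCN0000037475, lower in UMSCC8, had 141, 140 and 91.0 CPM with DMSO in UMSCC25 and 296, 162 and 312 CPM with gefitinib, so that every gefitinib plate was above every DMSO plate. Its log2 fold change there was 1.05 ± 0.38 (SE, adjusted p = 0.529 by edgeR), and the value in UMSCC8 minus that in UMSCC25 was -2.70 ± 0.67 (SE, adjusted p = 0.883 for the interaction by edgeR). TRCN0000006092 had log2 fold changes of 0.31 ± 0.53 (SE, in UMSCC25) and -1.87 ± 1.12 (SE, in UMSCC1), and TRCN0000021199 of -0.53 ± 0.67 (SE) and -1.43 ± 1.5 (SE). For the TGFBR2 shRNA TRCN0000040011 the values were -0.81 ± 0.54 (SE, in UMSCC25) and -0.29 ± 0.79 (SE, in UMSCC1), and the difference of UMSCC8 from either was not called, with adjusted p-values of 0.954 and 0.702 by edgeR. TRCN0000039774 of TGFBR1, higher on the gefitinib plates of UMSCC8, was listed at 0 on all 3 gefitinib plates of UMSCC25, where the DMSO plates had 6.20, 0 and 35.2 CPM. Its log2 fold change was -5.66 ± 2.11 (SE, adjusted p = 0.529 by edgeR) in UMSCC25. In UMSCC1, where the groups overlapped, it was -3.3 ± 1.47 (SE), and it was called in neither line. The difference of UMSCC8 from either line was not called, with adjusted p-values of 0.884 and 0.559 by edgeR. The study had listed TRCN0000039774 and TRCN0000040011 from these gefitinib plates of UMSCC25, so their values there are not independent evidence.

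AZD8931, at 30 nM per the treatment protocol and 1 µM per the other field, was compared with the same DMSO plates of UMSCC8, so its values share those controls and are given side by side only. TRCN0000000374 had 32621 ± 8275 CPM with AZD8931 (SD of 3 plates), between the means of DMSO and gefitinib. TRCN0000006092 had 384 ± 10.1 CPM, also between the gefitinib and DMSO means. TRCN0000037475 had 262 ± 18.6 CPM, within the range of the DMSO plates. TRCN0000021199 had 106 ± 33.9 CPM and TRCN0000040011 had 75.8 ± 31.8 CPM, each between the gefitinib and DMSO means. For TRCN0000021199 the AZD8931 plates had 122, 129 and 67.1 CPM, and the DMSO mean without replicate 1 was 128.6 CPM. For TRCN0000040011 an AZD8931 plate at 39.9 CPM lay within the range of the gefitinib plates. The 4 shRNAs named by rank were picked for separation between DMSO and gefitinib, so a mean between them is description only.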

How the data were processed

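Integrated shRNA cassettes were read by sequencing of PCR products from genomic DNA. The file deposited by the authors holds unnormalized counts, 1 whole number for each shRNA in each library. Bowtie 1.0.0, edgeR and hg19 are named in the submitters' processing notes, with no role stated. Groups and replicate numbers come from the sample labels, to which the columns were matched by name. Per the study's methods, the plates of a line were split from its transduced and selected cells before treatment, so p-values measure the spread between plates and not between transductions. Replicates of the DMSO and gefitinib groups differed beyond sampling noise in every pair (reduced chi-square 8.21 to 21.2). So did the AZD8931 replicates of UMSCC8 (6.11 to 11.3). Reads carry no molecular identifiers, so limits cover counting error only.

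Tests used the quasi-likelihood functions of edgeR 4.0.16 (R 4.3.3; robust, TMM) in 1 fit of the 9 UMSCC8 libraries (DMSO, gefitinib and AZD8931), over shRNAs with 10 or more counts in the 6 libraries compared. Calls by these tests needed a Benjamini-Hochberg adjusted p under 0.05 over all 3099 shRNAs. DESeq2 adjusted only over the shRNAs to which it gave an adjusted p. SE values were obtained from the F statistic, and CPM from TMM-scaled totals. Differences between lines were tested as interactions over 27 libraries. The fit was tested on simulated data. Alternatives were each library left out, 6 libraries only, a replicate block, RLE or total-count scaling, other filters, DESeq2 1.42.0 and the edgeR exact test. DESeq2, the exact test and the fit of 6 libraries, each without DMSO replicate 1, were added after seeing the data. The text names the TGFBR1 and TGFBR2 shRNAs listed by the study, and the 2 lower and 2 higher shRNAs of smallest p whose groups did not overlap with or without DMSO replicate 1. The comparison, members and lists were chosen with earlier results of these data known.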

Additional observations from a re-analysis of the deposited data

Results flagged for a closer look

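Among the 9 libraries of UMSCC8, 5 measures per library were compared by Dixon's criterion at 95%, where chance alone marks about 1 in 20 sets. DMSO replicate 1 had 328 shRNAs at 0, far above the other libraries. Its median correlation with the other libraries of the line was 0.696, far below theirs. Gefitinib replicate 3 had a total of 178406 counts, far below the other libraries. Results are given with and without the first, and the values without the second are included in the ranges given for omitted libraries.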

How the results depend on the processing

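The count of 0 at an adjusted p under 0.05 by the quasi-likelihood test held when any 1 of the 6 libraries was left out (range 0 to 0 in each direction), with only the 6 libraries, with the replicate block, with RLE or total-count scaling and with both other filters. DESeq2 gave 32 lower and 44 higher, and 21 and 39 without DMSO replicate 1. The exact test gave 3 and 4 without that library. At an unadjusted p, omitting a library gave 141 to 236 lower and 116 to 235 higher. With 1 plate fewer, shRNAs whose groups did not overlap numbered 392 to 508 lower and 353 to 495 higher, since fewer plates had to be cleared. Those at 0 with gefitinib numbered 5 to 16, for the same reason. Those at 0 with DMSO numbered 0 to 17, with 1 without DMSO replicate 1, 12 without replicate 2 and 17 without replicate 3. The 12 and 17 were reached with DMSO replicate 1, which had 328 shRNAs at 0, among the plates left. The DESeq2 interaction gave 7 shRNAs for UMSCC1. No pairing of plates by the numbers in the labels was seen: same-numbered deviations correlated at 0.027, -0.016 and -0.022. The same-numbered plate was the best match for number 1 only. Such values cannot exclude a pairing. With the replicate block, 170 shRNAs were lower and 178 higher at an unadjusted p and 0 at an adjusted p.

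Signs of 4 of the named shRNAs turned. Over the omissions of a library, the log2 fold change of TRCN0000039775 ranged from -1.20 to 0.82, that of TRCN0000039776 from -0.30 to 0.70, that of TRCN0000040009 from -0.24 to 0.20 and that of TRCN0000040010 from -0.42 to 0.01. Without DMSO replicate 1, TRCN0000039775 was at 0.85 by DESeq2 and at 0.83 by the exact test and with 6 libraries only, and TRCN0000039776 at -0.29 by DESeq2 and at -0.30 by the other 2 fits. Without gefitinib replicate 3, TRCN0000039776 was at -0.21 and TRCN0000040009 at -0.24. TRCN0000040009 was at -0.05 without DMSO replicate 2 and with total counts only. The cause was not tested. These make 13 values of named shRNAs that changed sign. A further 7 kept their sign and passed the threshold, all with DESeq2 and all for the 4 shRNAs named by rank, and 183 kept both. Gefitinib replicate 3 had a median of 26 counts per shRNA, which limits the precision of its values.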
